A study of Mus musculus with 8 samples.

Results

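Bone marrow stromal cultures from Id1-/- mice were compared between mice that had carried leukaemia driven by MLL-AF9 and mice that had carried leukaemia driven by AE9a. Both MLL-AF9 Id1-/- libraries were set against 1 AE9a Id1-/- library, so 3 of the 8 samples in the series carry the comparison. The other AE9a Id1-/- column was left out because it equals the first plus 17 in all 14187 genes with at least 10 counts. The comparison covers the 15849 gene names found once in both deposited tables.

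MLL-AF9 joins KMT2A (MLL) to MLLT3 (AF9), and AE9a is AML1-ETO9a, a shortened fusion of RUNX1 (AML1) with RUNX1T1 (ETO). Each mouse had been transplanted with acute myeloid leukaemia, and its marrow was taken 6 weeks later. Whole marrow and bone were plated in alpha-MEM with fetal bovine serum, and RNA was extracted once adherent cells had appeared. The mice of both arms compared were Id1 knockouts. The Id1+/+ cultures of both models, 2 MLL-AF9 libraries and 1 usable AE9a library, show the same contrast with Id1 present. The series addresses what Id1 in the tissue around leukaemia-initiating cells does for them, and its title names the secreted protein ANGPTL7. The labels give the knockout without its allele, and name neither the animals nor their sex, so p-values measure the spread between libraries, which may be technical. The AE9a arm is 1 library and was assumed to vary like the other groups. The leukaemia model cannot be told apart from the deposited table or from any batch that goes with it. The deposited AE9a table is labelled FLT and the MLL-AF9 table BMT, letters that also go with the model and were not examined here. These are bulk libraries, in which fewer cells of a type and less RNA per cell cannot be told apart.

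Stromal cells of the marrow include mesenchymal cells that lay down collagen, can become bone or fat, and secrete the chemokines and growth factors that hold blood stem cells. Adherent cultures of whole marrow also keep macrophages, which take up debris, recycle iron and answer interferon. MLL fusions are known to hold the Hoxa genes and their partner Meis1 active in leukaemic myeloid cells. Id proteins lack a DNA-binding region and pair with E proteins, which keeps these transcription factors off DNA.

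The libraries held 18126803 counts for AE9a Id1-/- and 18727623 and 17864812 for MLL-AF9 Id1-/-, and the Id1+/+ libraries held 20967896 to 22510346. Joined names took 93.82% of the AE9a Id1-/- counts and 99.48% or more of the MLL-AF9 Id1-/- counts. Levels are given as CPM, counts scaled to a common library size by TMM, always in the order AE9a, MLL-AF9 replicate 1, MLL-AF9 replicate 2. Across genes the log CPM of the AE9a Id1-/- library correlated with the MLL-AF9 Id1-/- libraries at Pearson's r of 0.9311 and 0.9345, against 0.9867 between the MLL-AF9 replicates. The first principal component, with 60.2% of the variance, set the AE9a libraries apart from the MLL-AF9 libraries, and the second, with 23.4%, set the genotypes apart.

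Id1 RNA was low but present in all 3 knockout libraries. Id1 (ENSMUSG00000042745.9, chr2:152736251-152737410, plus strand, mm10) stood at 4.44 CPM in AE9a Id1-/- and at 11.5 and 11.9 CPM in MLL-AF9 Id1-/-. The Id1+/+ libraries held 21.7 CPM for AE9a and 34.6 and 28.8 CPM for MLL-AF9. Every knockout library thus lay below every Id1+/+ library, and both MLL-AF9 knockout libraries lay above the AE9a knockout library. The log2 fold of MLL-AF9 over AE9a in knockout cultures was 1.40 (SE 0.20, edgeR quasi-likelihood, Benjamini-Hochberg adjusted p = 3.62e-05). The counts behind these levels were 83, 226 and 222. Which part of the gene was deleted is not given in the labels, so reads left on it do not test the deletion.

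Angptl7, which encodes a secreted angiopoietin-like glycoprotein, was higher in the MLL-AF9 knockout cultures. Angptl7 (ENSMUSG00000028989.3, chr4:148495183-148500460, minus strand) measured 4.23 CPM in the AE9a knockout library and 34.3 and 33.9 CPM in the MLL-AF9 knockout libraries. With Id1 present the order was turned, at 91.1 CPM for AE9a and 67.5 and 75.3 CPM for MLL-AF9. The AE9a knockout library was the lowest of the 6 and the AE9a Id1+/+ library the highest. The log2 fold of MLL-AF9 over AE9a was 3.01 (SE 0.17, adjusted p = 1.62e-09) in Id1-/- and -0.35 in Id1+/+. Because ANGPTL7 is named in the title, its difference between the genotypes is not independent evidence.

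The other Id genes did not share one direction. Id2 was lower in MLL-AF9 Id1-/-, at 234 CPM in AE9a against 98.2 and 94.9 CPM, a log2 fold of -1.28 (SE 0.11, adjusted p = 1.91e-07). Id3 was higher, at 84.4 against 144 and 135 CPM, a log2 fold of 0.72 (SE 0.11, adjusted p = 0.000112). Id4, at 6.16 against 7.43 and 7.69 CPM, was not called (adjusted p = 0.296). Of the E proteins, Tcf4 was higher, at 57.0 against 129 and 125 CPM, and Tcf12 lower by 0.32 on the log2 scale, a call lost without MLL-AF9 Id1-/- replicate 2 (adjusted p = 0.108). Among 9 angiopoietin-like genes, angiopoietins and receptors tested, 5 were called higher and 1 lower, where 25.1% and 19.2% of all genes tested were. Angptl2, a secreted protein linked to inflammation, stood at 70.2 against 153 and 172 CPM. Angptl4, an inhibitor of lipoprotein lipase, stood at 22.5 against 47.5 and 47.1 CPM. Angpt1, the ligand of the Tie2 receptor, was the lower one, at 3.96 against 1.42 and 1.56 CPM.

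Across the genome the models differed widely. Of 15086 genes tested, 3780 (25.1%) were higher and 2895 (19.2%) lower in MLL-AF9 Id1-/- at an adjusted p under 0.05. These shares are the background against which the members of any gene group called higher or lower should be read. Among 12846 genes averaging 1 CPM or more, 1071 (8.34%) lay at least 2-fold above the AE9a library in both MLL-AF9 libraries and 713 (5.55%) at least 2-fold below it. Genes with no counts in any MLL-AF9 library are absent from the join, whereas genes with no counts in AE9a could be tested. The counts of lower genes, here and in the gene lists, therefore leave out genes silent in MLL-AF9. How far this shifts the balance of higher and lower genes was not tested. Of the 6675 called genes, 4279 had a fitted fold under 2, and 1757 passed the 2-fold rule. The median log2 fold over all genes tested was 0.06. In Id1+/+ cultures 91.9% of the genes called higher and 90.6% of those called lower had the same sign. The Id1+/+ contrast shares no library with the Id1-/- contrast, but it shares the tables and any batch. Over all genes tested the folds in the genotypes correlated at Pearson's r of 0.702 and Spearman's rho of 0.706, a description across genes, which are not replicates.

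**Figure D1:**
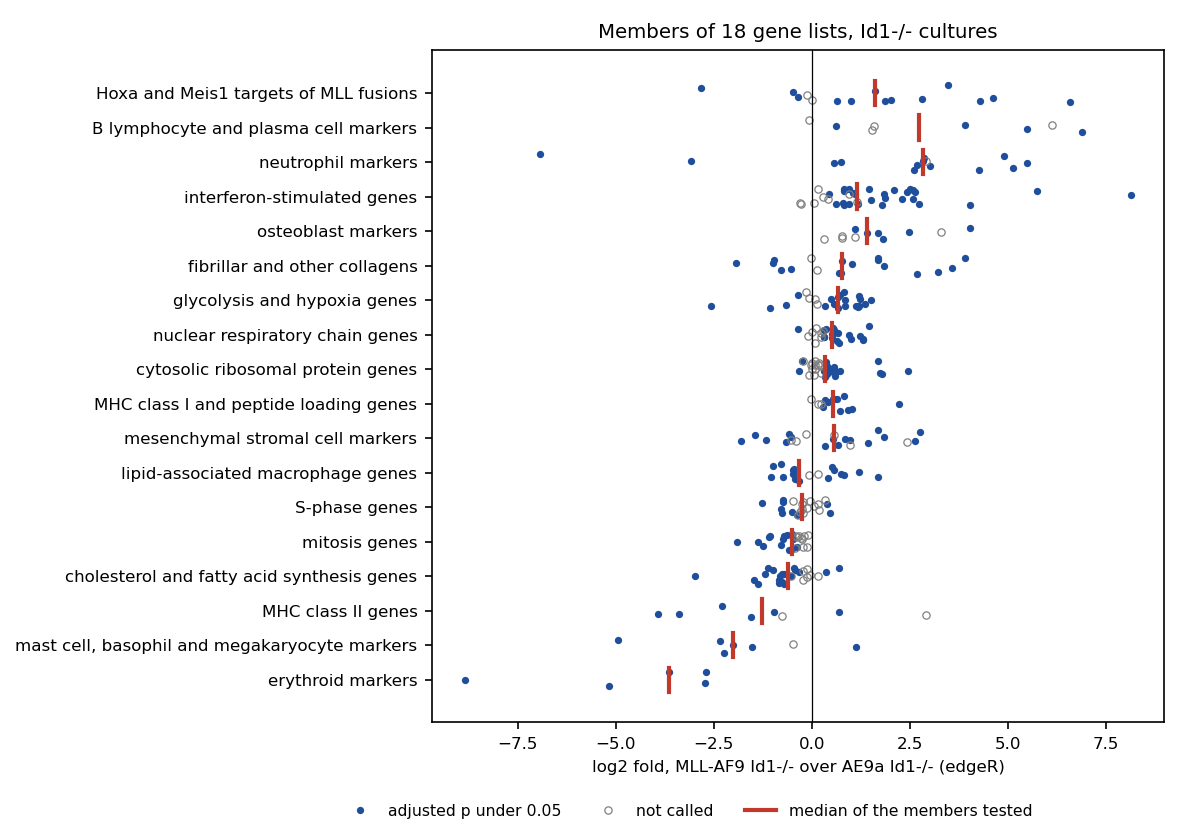
Log2 fold of MLL-AF9 Id1-/- over AE9a Id1-/- (edgeR) for each tested member of 18 gene lists, with filled points for an adjusted p under 0.05 and a red bar at the list's median. Erythroid markers lie lowest with a median of -3.64, the sterol list lies mostly below 0 with a median of -0.63, and the interferon-stimulated list lies mostly above 0 with a median of 1.14.

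The label calls the cells mesenchymal, and the defining markers of mesenchymal cells and of macrophages were both present. Lyz2, the lysozyme of macrophages and granulocytes, stood at 20300 CPM in AE9a and 13346 and 12636 CPM in MLL-AF9 Id1-/-. Csf1r, the receptor for the macrophage growth factor, stood at 847 against 928 and 897 CPM, and Adgre1, the F4/80 antigen, at 494 against 451 and 484 CPM. The platelet-derived growth factor receptor Pdgfra stood at 34.5 against 22.4 and 21.6 CPM and its partner Pdgfrb at 65.4 against 54.2 and 64.2 CPM. Lepr, which marks stromal cells around marrow sinusoids, stood at 1.66 against 2.24 and 2.69 CPM. These 6 genes were chosen after their values were seen. The 24 macrophage markers summed to 3.6% of the counts in AE9a and 2.94% and 2.88% in MLL-AF9 Id1-/-, and none was at 0. The 22 mesenchymal markers summed to 0.148% in AE9a and 0.338% and 0.367% in MLL-AF9 Id1-/-, and none was at 0. A few genes set both sums. The members left out next were chosen after their values were seen. Without the collagens Col1a1 and Col1a2 the mesenchymal markers summed to 559.7 CPM in AE9a against 443.0 and 455.2 CPM. The order of the libraries thus turned in that list. Without Lyz2 the macrophage markers summed to 15729.7 against 16048.8 and 16165.9 CPM, so the libraries were nearly level. All these sums are shares of RNA and not of cells.

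Genes that MLL fusions keep active were mostly higher in MLL-AF9 Id1-/- cultures. Of 15 Hoxa and Meis1 targets of MLL fusions tested, 10 were higher and 3 lower in MLL-AF9 Id1-/-, with a median log2 fold of 1.60 against 0.06 over all genes. Hoxa9 (chr6:52223100-52231089, minus strand), a homeobox factor of blood progenitors, stood at 4.76 CPM in AE9a and 108 and 124 CPM in MLL-AF9, a log2 fold of 4.60 (SE 0.17, adjusted p = 1.36e-11). Meis1 (chr11:18879817-19018985, minus strand), its DNA-binding partner, stood at 4.66 against 53.3 and 50 CPM, a log2 fold of 3.47 (SE 0.16, adjusted p = 1.58e-10). Mecom (chr3:29951296-30548008, minus strand), which encodes the factor EVI1, stood at 0.589 against 55.9 and 58.0 CPM, a log2 fold of 6.58 (SE 0.24, adjusted p = 1.3e-11). In each of these genes the 2 MLL-AF9 libraries lay close together, and the AE9a library lay far below them.

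The neighbouring Hoxa genes went the same way. Hoxa7 stood at 3.37 against 65.3 and 67.0 CPM, and Hoxa10 at 6.16 against 45.0 and 41.2 CPM. Hoxa3 stood at 0.91 against 8.55 and 8.71 CPM and Hoxa5, chosen after its values were seen, at 2.09 against 6.97 and 8.22 CPM. Mef2c, a transcription factor of myeloid and B cells and likewise chosen after its values were seen, stood at 39.2 against 160 and 155 CPM. Of 20 Hox cluster genes tested, 10 were higher and 2 lower, with a median log2 fold of 1.54. The lower ones, Hoxc4 and Hoxc5, stood at 3.69 against 1.37 and 1.13 CPM and at 3.64 against 1.58 and 1.72 CPM, and neither was called by the DESeq2 Wald test (adjusted p of 0.119 and 0.268). Against the list, Myb, a transcription factor of dividing progenitors, was lower in MLL-AF9, at 18.7 against 2.39 and 2.85 CPM. Without MLL-AF9 Id1-/- replicate 2 only 1 of the 15 target genes was called lower.

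Transcripts of both partners of the MLL-AF9 fusion were lower in MLL-AF9 cultures. Kmt2a stood at 141 CPM in AE9a against 46.0 and 53.2 CPM in MLL-AF9, a log2 fold of -1.51 (SE 0.14, adjusted p = 5.15e-07). Mllt3 stood at 23.3 against 5.65 and 6.07 CPM, a log2 fold of -1.99 (SE 0.17, adjusted p = 1.95e-07). Of the AE9a partners, Runx1 stood at 94.6 against 79.7 and 79.8 CPM and was not called (adjusted p = 0.078), though 7 of the alternative settings called it lower. Runx1t1, at 1.28 against 0.712 and 0.806 CPM, was not called (adjusted p = 0.315). Of the 4 partners, 2 were lower and none higher. Counts per gene do not tell a fusion transcript from the normal gene.

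Blood lineage markers fell into opposite groups. Of 5 erythroid markers tested, all 5 were lower in MLL-AF9, with a median log2 fold of -3.64. Klf1, the master transcription factor of red cells, stood at 14.4 CPM in AE9a against 0.509 and 0.269 CPM, a log2 fold of -5.18 (SE 0.34, adjusted p = 1.04e-08). Hba-a1, an alpha-globin, had 727 counts in AE9a and 2 and 1 in MLL-AF9, so AE9a was 496.4-fold higher (95% exact interval 169.2 to 2412, for counting error only). Tfrc, the transferrin receptor, which macrophages also use, stood at 799 against 130 and 112 CPM. The erythropoietin receptor Epor stood at 6.64 against 1.22 and 0.806 CPM. The AE9a library was above both MLL-AF9 libraries in each of these genes.

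Of 7 mast cell, basophil and megakaryocyte markers tested, 5 were called higher in AE9a and 1 the other way, with a median log2 fold of -2.01. Gata2, a transcription factor of progenitors and mast cells, stood at 49.8 CPM against 1.88 and 1.34 CPM, a log2 fold of -4.94 (SE 0.19, adjusted p = 1.95e-11). Kit, the stem cell factor receptor, from the progenitor list, stood at 50.4 against 1.37 and 0.752 CPM, a log2 fold of -5.55 (SE 0.24, adjusted p = 8.5e-11). Hdc, which makes histamine, stood at 50.5 against 1.07 and 0.322 CPM, and Slc18a2, which loads amines into vesicles, at 37.8 against 0.712 and 0.699 CPM. Like Kit, neither is on this list, so these genes do not add to its count. Il1rl1, the interleukin-33 receptor of mast cells and other immune cells, also not on the list and chosen after its values were seen, stood at 124 against 13.1 and 9.51 CPM. Pf4 and Itga2b, of megakaryocytes and on the list like Gata2, stood at 402 against 140 and 137 CPM and at 16.6 against 3.05 and 3.92 CPM. Mcpt8, a basophil protease, was the exception, at 6.91 against 16.0 and 14.1 CPM. In the AE9a table the mast cell proteases Cpa3 and Cma1, names outside the join whose MLL-AF9 level was not analysed here, had 6242 and 1611 counts.

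Of 15 myeloid progenitor and blast markers, 6 were higher and 7 lower, with a median log2 fold of -0.33. The higher ones include Hoxa9 and Meis1 and the lower ones Kit and Myb. With genes kept only at a mean of at least 5 CPM, 3 were called lower. Their summed level was 1139 CPM in AE9a and 1479 and 1458 CPM in MLL-AF9 Id1-/-. The part of blood progenitors in the Hoxa and Kit differences was not tested.

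Neutrophil markers were mostly higher in MLL-AF9, with 11 of 14 tested called higher and 2 lower, and a median log2 fold of 2.84. Padi4, which citrullinates histones, stood at 3.53 CPM against 101 and 111 CPM, a log2 fold of 4.91 (SE 0.17, adjusted p = 8.43e-12). The granule gene Ngp stood at 2.52 against 47.8 and 47.8 CPM and S100a8, a subunit of calprotectin, at 6.26 against 40.4 and 39.2 CPM. S100a9, its partner subunit, chosen after its values were seen, stood at 5.14 against 39.9 and 34.4 CPM. Chil3 (chr3:106147554-106167564, minus strand), a chitinase-like protein also made by alternatively activated macrophages, went the other way, with a log2 fold of -6.94 (SE 0.12, adjusted p = 4.26e-15). Its levels were 3114 CPM in AE9a against 26.2 and 24.5 CPM in MLL-AF9. The summed level of the list, in which Chil3 is included, was higher in AE9a, at 3314 CPM against 562 and 585 CPM.

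**Figure D2:**
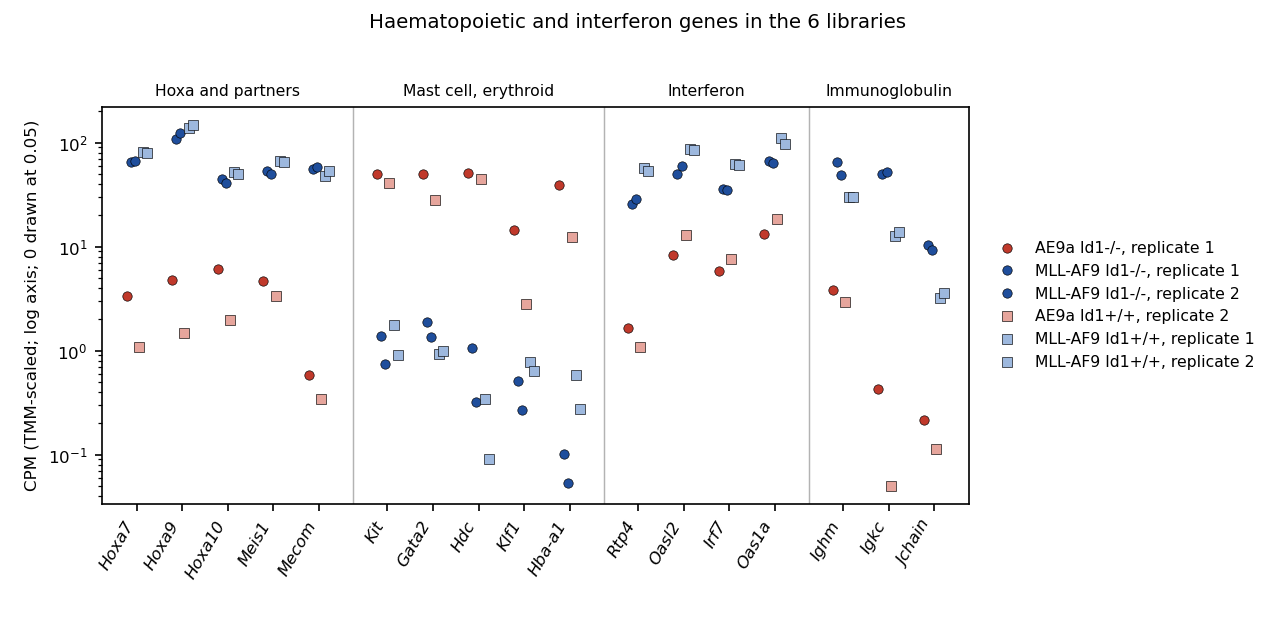
CPM on a log axis in each of the 6 libraries (red for AE9a, blue for MLL-AF9, circles for Id1-/-, squares for Id1+/+) for Hoxa genes and partners, mast cell and erythroid genes, interferon-stimulated genes and immunoglobulin genes. In Id1-/- cultures Hoxa9 stood at 4.76 CPM in AE9a against 108 and 124 CPM in MLL-AF9, while Kit stood at 50.4 against 1.37 and 0.752 CPM.

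B lymphocyte and plasma cell transcripts were higher in MLL-AF9, with 4 of 8 tested called higher and none lower. Their median log2 fold was 2.73, or 1.55 with the members at 0 in AE9a set to their lower bound. Ighm, the immunoglobulin M heavy chain, stood at 3.85 CPM against 65.4 and 48.9 CPM, and Igkc, the kappa light chain, at 0.428 against 49.7 and 52.6 CPM. Jchain, which links secreted antibody units, stood at 0.214 against 10.3 and 9.3 CPM. Ebf1, a factor of early B cells and of stroma, chosen after its values were seen, stood at 12.8 against 12.0 and 12.1 CPM (adjusted p = 0.72). Antibody heavy chain genes outside the lists were named for the size of their folds, so they are no separate support. Ighg1 had 0 counts in AE9a and 697 and 730 in MLL-AF9, at least 232-fold higher when the 0 is taken as 3 counts in that library. Igha had 1 count against 898 and 833. Of 4 T and NK lymphocyte markers tested, only the chemokine Ccl5 was called, lower at 3.43 against 1.12 and 0.484 CPM, and the list had a median log2 fold of -0.89. The summed level of the B and plasma cell list was 127 CPM in AE9a and 310 and 288 CPM in MLL-AF9, and the part of these cells in other differences was not tested.

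Endothelial markers were mixed, with 2 of 9 higher, 3 lower and a median log2 fold of -1.34. Kdr, the main receptor of vascular endothelial growth factor, stood at 19.7 CPM against 0.865 and 1.88 CPM, and Vwf at 163 against 35.3 and 45.9 CPM. Erg, an endothelial and stem cell transcription factor, stood at 1.07 against 22.4 and 21.9 CPM. Of 5 muscle, nerve, glia and epithelial markers tested, 1 was lower (Cdh1, E-cadherin, at 4.76 against 0.712 and 0.699 CPM) and none higher, with a median log2 fold of -1.10 and summed levels of 24.1 to 27.4 CPM.

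Macrophage genes did not shift as one block. Of 24 macrophage markers, 13 were higher and 6 lower in MLL-AF9, with a median log2 fold of 0.35. Mrc1, the mannose receptor, was lower, at 628 CPM against 137 and 146 CPM, a log2 fold of -2.15 (SE 0.10, adjusted p = 1.68e-10). Fcgr1, the high-affinity antibody receptor, was higher, at 13.3 against 60.1 and 57.5 CPM, a log2 fold of 2.15 (SE 0.13, adjusted p = 4.87e-09). The scavenger receptor Marco had 1 count in AE9a and 173 and 164 in MLL-AF9, and the cytoskeletal gene Aif1 stood at 2.94 against 19.6 and 20.7 CPM. Ctss, the cathepsin that trims class II chaperones, was lower, at 5488 against 2875 and 2835 CPM.

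Genes of alternative macrophage activation split into 4 higher and 6 lower of 12 tested, with a median log2 fold of -0.28. Arg1, arginase, stood at 15.4 against 1.83 and 1.40 CPM and the transcription factor Egr2 at 98.1 against 17.6 and 15.6 CPM. Clec10a, a lectin, was higher, at 4.39 against 14.2 and 15.4 CPM. Of 19 lipid-associated macrophage genes, 7 were higher and 10 lower, with a median log2 fold of -0.32. Gpnmb, a glycoprotein of phagocytic cells, stood at 19869 against 15040 and 16744 CPM and Apoe, the lipid carrier, at 9414 against 6689 and 7026 CPM. Mfge8, which bridges dying cells to phagocytes, stood at 3150 against 360 and 377 CPM. These 3 genes were chosen after their values were seen. Plin2, which coats lipid droplets, was higher, at 836 against 1849 and 1981 CPM.

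Of 10 osteoclast markers, 3 were higher and 4 lower, with a median log2 fold of -0.08. Atp6v0d2, a proton pump subunit used in cell fusion, stood at 817 against 118 and 115 CPM, and Ctsk, the collagen-cutting cathepsin, at 71.1 against 32.0 and 32.5 CPM. Mmp9, a gelatinase, was higher at 19.9 against 64.9 and 67.7 CPM. Of 5 dendritic cell markers, 2 were higher and 3 lower, with a median log2 fold of -1.34. Itgax, the CD11c integrin, stood at 685 against 121 and 137 CPM, and Cd83, a maturation marker, at 26.9 against 68.2 and 60.1 CPM.

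Lysosomal genes moved in both directions, with 10 of 27 higher, 6 lower and a median log2 fold of 0.19. Their log2 folds ran from -0.99 to 0.97, and none passed the 2-fold rule. Complement genes were mostly higher, with 11 of 15 higher, 1 lower and a median of 0.63. Cfp, properdin, which steadies the alternative pathway convertase, stood at 101 against 540 and 538 CPM, a log2 fold of 2.41 (SE 0.11, adjusted p = 2.06e-10). Cd55, which dissolves that convertase, stood at 17.1 against 0.56 and 0.107 CPM, a log2 fold of -5.63 (SE 0.41, adjusted p = 2.95e-08).

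Interferon-stimulated genes were mostly higher in MLL-AF9 Id1-/- cultures. Of 35 tested, 27 were higher and none lower, with a median log2 fold of 1.14, and 16 lay at least 2-fold above AE9a in both libraries. With 1 library left out at a time, 24 to 28 were called higher. Rtp4, an interferon-induced antiviral protein, stood at 1.66 CPM against 25.7 and 28.5 CPM, a log2 fold of 4.03 (SE 0.20, adjusted p = 5.65e-10). Irf7, the factor that amplifies type I interferon, stood at 5.89 against 35.9 and 34.9 CPM, a log2 fold of 2.59 (SE 0.15, adjusted p = 2.78e-09). Oasl2, of the oligoadenylate synthetase family, stood at 8.24 against 50 and 59.2 CPM. Isg15, the ubiquitin-like modifier, chosen after its values were seen, stood at 8.62 against 12.4 and 10.4 CPM and was not called (adjusted p = 0.0821). The summed level of the list was 472 CPM in AE9a and 1092 and 1089 CPM in MLL-AF9, so both MLL-AF9 libraries lay above the AE9a library.

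Promoters of these genes often carry the letters to which interferon regulatory factors bind, so the window around the start of each gene was searched for GAAANNGAAA on either strand (TTTCNNTTTC on the other). Windows ran from 250 bases before to 50 bases after each RefSeq gene start (GRCm38.p6). The letters occur in 3.92% of the 10811 tested genes with a window, and in 15 of the 26 interferon-stimulated genes with one. Of the 15 with the letters 11 were called higher, and of the 11 without them 9 were called higher, so the letters did not sort the called members from the rest. The promoters below, read 5′ to 3′ on the gene's strand with each match in capitals (overlapping matches run together), belong to the members with the smallest p-values among those that hold the letters and lay past 2-fold in both libraries. They are Oas1a (chr5:120907476-120907775, minus strand), Oas3 (chr5:120777610-120777909, minus strand), Bst2 (chr8:71537423-71537722, minus strand) and Ifit3 (chr19:34583279-34583578, plus strand).
Oas1a: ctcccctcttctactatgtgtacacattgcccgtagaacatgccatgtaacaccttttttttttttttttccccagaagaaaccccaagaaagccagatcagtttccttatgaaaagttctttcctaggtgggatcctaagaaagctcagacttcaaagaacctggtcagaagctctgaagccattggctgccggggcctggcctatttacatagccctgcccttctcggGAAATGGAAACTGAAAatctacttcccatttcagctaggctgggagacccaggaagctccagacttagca
Oas3: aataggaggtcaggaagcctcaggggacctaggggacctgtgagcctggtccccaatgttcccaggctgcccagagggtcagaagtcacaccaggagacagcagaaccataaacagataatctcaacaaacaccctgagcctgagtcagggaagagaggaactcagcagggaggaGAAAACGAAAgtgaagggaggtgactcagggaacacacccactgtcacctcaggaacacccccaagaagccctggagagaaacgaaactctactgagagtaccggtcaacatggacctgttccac
Bst2: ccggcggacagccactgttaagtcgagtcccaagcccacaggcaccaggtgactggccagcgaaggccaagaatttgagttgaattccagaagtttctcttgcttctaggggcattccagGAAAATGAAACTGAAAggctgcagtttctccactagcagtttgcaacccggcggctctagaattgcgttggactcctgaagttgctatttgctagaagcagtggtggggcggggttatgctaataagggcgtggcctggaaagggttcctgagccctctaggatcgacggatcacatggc
Ifit3: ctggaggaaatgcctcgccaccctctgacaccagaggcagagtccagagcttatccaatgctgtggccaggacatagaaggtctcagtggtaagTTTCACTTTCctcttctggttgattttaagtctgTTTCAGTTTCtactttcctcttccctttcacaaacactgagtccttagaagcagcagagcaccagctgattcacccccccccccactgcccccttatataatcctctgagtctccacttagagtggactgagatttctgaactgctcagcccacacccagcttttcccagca
A match is a description of these letters and not evidence of binding.

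The RNA of these 4 genes was higher in both MLL-AF9 libraries, and the last 3 were chosen after their values were seen. Oas1a, which senses double-stranded RNA, stood at 13.2 CPM against 66.0 and 64.1 CPM, a log2 fold of 2.30 (SE 0.14, adjusted p = 3.32e-09). Oas3, of the same family, stood at 20.3 against 88.6 and 83.4 CPM, a log2 fold of 2.08. Bst2, tetherin, which holds budding virus at the membrane, stood at 59.1 against 158 and 162 CPM, a log2 fold of 1.44. Ifit3, an antiviral protein with repeats that bind other proteins, stood at 1.07 against 5.90 and 6.23 CPM, a log2 fold of 2.50.

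Antigen presentation genes divided by class. Of 14 class I and peptide loading genes, 11 were higher and none lower, with a median log2 fold of 0.54. Psmb8, a catalytic subunit of the immunoproteasome, stood at 19.3 CPM against 84.6 and 95.1 CPM, a log2 fold of 2.22 (SE 0.13, adjusted p = 2.74e-09). Of 8 class II genes, 1 was higher and 5 lower, with a median of -1.27. H2-Aa, a class II alpha chain, stood at 36.3 against 2.80 and 1.93 CPM, a log2 fold of -3.93 (SE 0.19, adjusted p = 3.44e-10). H2-Ab1, its beta chain partner, stood at 26.1 against 4.88 and 5.75 CPM, and H2-Eb1 at 17.8 against 1.27 and 2.15 CPM. H2-DMb1, of the peptide editor, was the higher one, at 23 against 37.2 and 37.1 CPM. Of 15 tested members of the interferon-gamma GTPase list, 5 were higher and 4 lower, with a median of 0.30. The members are not all GTPases, since the transcription factor Irf8, called higher with a log2 fold of 0.45, is among them. Gbp9 stood at 2.09 against 17.2 and 16.8 CPM, and Gbp7 at 8.94 against 3.0 and 2.74 CPM. The DESeq2 Wald test called 2 members of this list higher and 2 lower. The higher count was 3 without MLL-AF9 Id1-/- replicate 1 and the lower count 2 without replicate 2.

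Most collagens were higher in MLL-AF9 Id1-/- cultures, and some basement membrane chains were lower. Of 18 collagens tested, 11 were higher and 5 lower, with a median log2 fold of 0.76. Col3a1 (chr1:45311538-45349706, plus strand), of fibrillar type III collagen, stood at 22.0 CPM against 320 and 337 CPM, a log2 fold of 3.90 (SE 0.13, adjusted p = 6.02e-12). Col1a1 and Col1a2, the chains of type I collagen, stood at 363 against 1206 and 1362 CPM and at 561 against 1734 and 1848 CPM. Col6a1 and Col6a2, of the beaded type VI filaments, stood at 35.1 against 304 and 351 CPM and at 17.8 against 193 and 228 CPM. Both MLL-AF9 libraries lay above the AE9a library in each of these chains. The basement membrane chain Col4a1 stood at 236 against 112 and 128 CPM, a log2 fold of -0.98 (SE 0.11, adjusted p = 3.14e-06). Col18a1, of vascular basement membranes, stood at 42.5 against 11.0 and 11.1 CPM, a log2 fold of -1.94 (SE 0.14, adjusted p = 2.65e-08). The laminin-binding Nid1 and the proteoglycan Hspg2, perlecan, also of basement membranes, stood at 179 against 89.1 and 95.2 CPM and at 344 against 110 and 135 CPM.

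Enzymes that make and crosslink collagen went with the fibrillar chains. Of 18 tested, 14 were higher and 1 lower, with a median log2 fold of 0.68. Adamts2, which trims procollagen, stood at 15.3 CPM against 84.2 and 93.5 CPM, a log2 fold of 2.54 (SE 0.14, adjusted p = 1.27e-09). Loxl2, a crosslinking oxidase, stood at 46.5 against 133 and 140 CPM, Serpinh1, the collagen chaperone, at 309 against 692 and 746 CPM, and the prolyl hydroxylase P4ha2 at 39.0 against 94.0 and 96.2 CPM. Of 28 matrix glycoproteins and proteoglycans, 13 were higher and 8 lower, with a median of 0.45. Thbs2, thrombospondin 2, stood at 87.4 against 212 and 225 CPM and Fmod, which binds collagen fibrils, at 1.34 against 8.19 and 8.17 CPM. Of 21 matrix proteases and inhibitors, 11 were higher and 7 lower, with a median of 0.57. Timp3, an inhibitor of metalloproteinases, stood at 95.8 against 358 and 380 CPM, and Mmp2 at 73.7 against 180 and 199 CPM. The macrophage elastase Mmp12 was lower, at 6239 against 3050 and 2963 CPM.

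Some bone and contractile genes were higher. Of 11 osteoblast markers tested, 6 were higher and none lower, and 6 passed the 2-fold rule, with a median log2 fold of 1.40. Alpl (chr4:137741733-137796384, minus strand), the alkaline phosphatase of mineralizing cells, stood at 4.07 CPM against 66.5 and 67.0 CPM, a log2 fold of 4.03 (SE 0.16, adjusted p = 4.15e-11). Sparc, osteonectin, stood at 502 against 1266 and 1376 CPM and Spp1, osteopontin, which macrophages also make, at 1628 against 5304 and 5103 CPM. Of 11 smooth muscle and pericyte markers, 6 were higher and 2 lower, with a median of 0.70. Acta2, smooth muscle actin, stood at 414 against 1108 and 1148 CPM and Cnn1, calponin, at 7.82 against 35.9 and 40.4 CPM. Cspg4, the NG2 proteoglycan of pericytes, was lower at 17.8 against 3.56 and 4.84 CPM, and Myh11, smooth muscle myosin, at 4.98 against 0.458 and 0.537 CPM.

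Of 22 mesenchymal stromal cell markers, 10 were higher and 6 lower, with a median log2 fold of 0.55. Ly6a, the Sca-1 antigen, stood at 6.53 CPM against 47.1 and 40.3 CPM. Eng, endoglin, was lower, at 42.5 against 16.0 and 15.0 CPM. Grem1 (chr2:113746164-113758646, minus strand), which blocks bone morphogenetic proteins, was lower, at 187 against 52.5 and 53.4 CPM, a log2 fold of -1.82 (SE 0.10, adjusted p = 1.1e-09). Of 23 mesenchymal transcription factors, 8 were higher and 2 lower, with a median of 0.42. The DESeq2 Wald test called 3 of them higher, and 4 were called higher and none lower without MLL-AF9 Id1-/- replicate 2. Prrx2, a homeobox factor of limb mesenchyme, stood at 6.64 against 23.5 and 25.7 CPM. Foxd1 had 3 counts in AE9a against 156 and 121. Of 6 adipocyte markers, 2 were higher and 1 lower, with a median of 0.08, though 1 was called higher under most other settings, also with MLL-AF9 Id1-/- replicate 2 or either MLL-AF9 Id1+/+ replicate left out. Of 6 chondrocyte and tendon markers, 2 were higher and 1 lower, with a median of 0.22, and 1 was called higher without MLL-AF9 Id1-/- replicate 2 and with the DESeq2 Wald test.

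**Figure D3:**
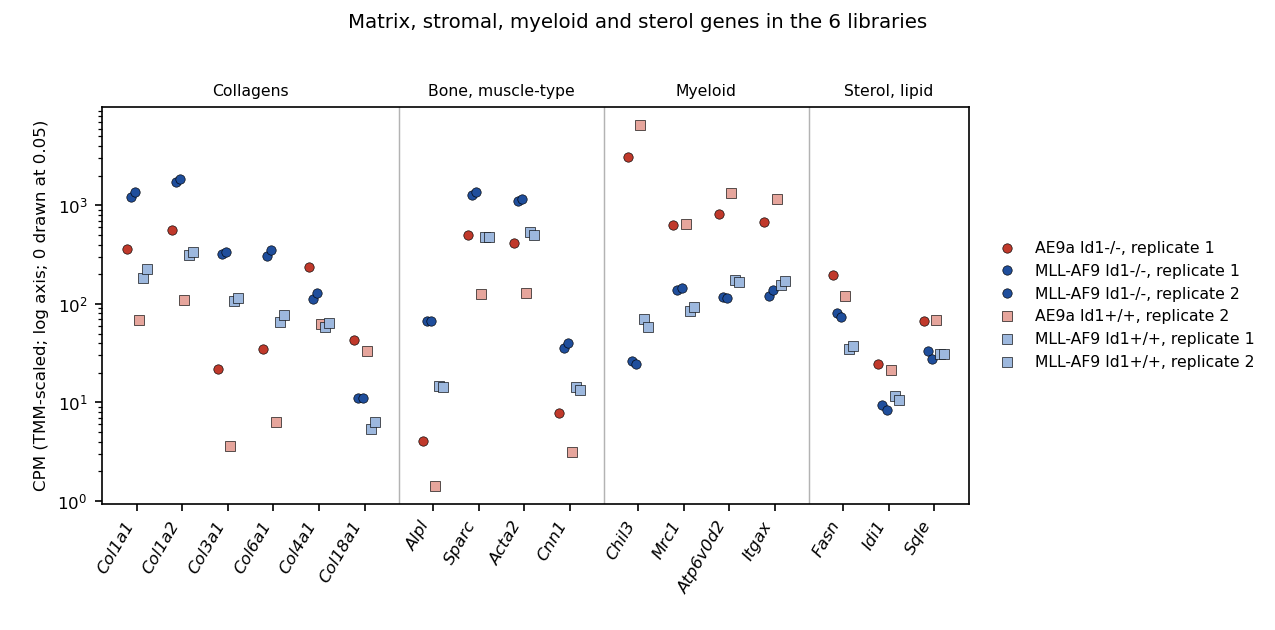
CPM on a log axis in each of the 6 libraries for collagens, bone and muscle-type genes, myeloid genes and sterol or lipid genes, with the colours and shapes standing for model and genotype. Col3a1 stood at 22.0 CPM in AE9a Id1-/- against 320 and 337 CPM in MLL-AF9 Id1-/-, and Atp6v0d2 at 817 against 118 and 115 CPM.

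Niche factors had no common direction, with 6 of 18 higher, 7 lower and a median log2 fold of -0.46. Cxcl12, the chemokine that holds blood stem cells, stood at 20.2 CPM against 32.0 and 32.4 CPM, a log2 fold of 0.67 (adjusted p = 0.000952). Kitl, stem cell factor, stood at 14.1 against 6.05 and 6.45 CPM, a log2 fold of -1.17 (adjusted p = 0.000237). Both were chosen after their values were seen. Jag1, a Notch ligand, stood at 17.2 against 59.6 and 63.5 CPM, and Ptn, the growth factor pleiotrophin, at 0.535 against 17.8 and 17.7 CPM. Csf1, the macrophage growth factor, was lower, at 938 against 395 and 424 CPM, as was Hgf, hepatocyte growth factor, at 31.6 against 7.38 and 7.15 CPM. Higher and lower members thus stood side by side within this list.

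Among signalling lists, 10 of 24 Wnt and Notch genes were higher and 2 lower, with a median log2 fold of 0.72. Ccn5, a matricellular protein, stood at 2.46 CPM against 80.6 and 86.9 CPM, and Dkk3, of the Dickkopf family, at 11.7 against 104 and 117 CPM. Wnt4 stood at 0.642 against 7.94 and 6.88 CPM and the receptor Notch1, which was lower, at 61.8 against 34.4 and 38.2 CPM. Of 25 TGF-beta and BMP genes, 8 were higher and 9 lower, with a median of 0.01, and the DESeq2 Wald test called 4 higher. Gdf15, a stress-induced ligand, stood at 37.7 against 120 and 142 CPM, and Smad3, which carries the TGF-beta signal to the nucleus, at 16.5 against 44.8 and 43.5 CPM. Of 10 insulin-like growth factor genes, 4 were higher and 4 lower, with a median of 0.53. Igfbp5, a binding protein kept in matrix, stood at 8.99 against 62.8 and 67.5 CPM and Igf2r, the clearance receptor, at 390 against 164 and 181 CPM.

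Inflammatory cytokines and chemokines were mixed, with 9 of 24 higher, 6 lower and a median log2 fold of 0.34. Cxcl14, a chemokine of stroma and epithelia, stood at 18.5 CPM against 85.2 and 83.0 CPM, a log2 fold of 2.19 (SE 0.12, adjusted p = 1.68e-09). Ccl6, a myeloid chemokine, stood at 410 against 82.3 and 77.7 CPM, a log2 fold of -2.36 (SE 0.09, adjusted p = 4.21e-11). Ptgs2, cyclooxygenase 2, stood at 125 against 42.6 and 40.1 CPM, and the monocyte chemokine Ccl7 at 101 against 41.0 and 39.1 CPM. Of 15 NF-kB feedback genes, 9 were higher and 1 lower, with a median of 0.39. Bcl3, an atypical inhibitor of that factor, stood at 11.0 against 22.6 and 25.6 CPM, and Tnfaip3, the A20 enzyme, was lower at 73.3 against 51.5 and 49.3 CPM.

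Some genes, among them the inflammatory genes Tnf and Cxcl2, differed between the MLL-AF9 knockout replicates as well as between models. Tnf, tumour necrosis factor, stood at 9.74 CPM in AE9a against 179 and 53.4 CPM, and Cxcl2, a neutrophil chemokine, at 2.14 against 50.9 and 12.9 CPM. Car2, carbonic anhydrase 2, lay on both sides of AE9a, at 83.2 against 112 and 28.7 CPM, and was not called (adjusted p = 0.683). These 3 genes were chosen after their values were seen. Mycn, a MYC-family factor, had 2 counts in AE9a, 1146 and 270 in MLL-AF9 Id1-/-, and 0 in all 3 Id1+/+ libraries. Its ratio to AE9a was 346 (95% exact interval 95.5 to 2857, counting error only), and its call was lost with DESeq2 (adjusted p = 0.0514) and with limma-voom (adjusted p = 0.0625). In all, 174 genes lay more than 2-fold apart between the MLL-AF9 Id1-/- replicates, 125 of them higher in replicate 1.

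Transcripts of the Y chromosome were likewise higher in replicate 1. Ddx3y, Eif2s3y and Kdm5d had 0 counts in the AE9a knockout library, 26, 42 and 40 in MLL-AF9 replicate 1, and 3, 9 and 5 in replicate 2. They were at 0 in all 3 Id1+/+ libraries. All 3 were called higher. Without MLL-AF9 Id1-/- replicate 1, or at a mean of at least 5 CPM, they fell below the filter and were not tested. The DESeq2 Wald test called none of them. Ddx3y also lost its call with library totals (edgeR adjusted p = 0.0525) and with limma-voom (adjusted p = 0.0555). Xist, which silences one X chromosome in female cells, was abundant in every library and lower in MLL-AF9, at 636 CPM against 274 and 311 CPM, a log2 fold of -1.12 (SE 0.13, adjusted p = 4.15e-06). Of the 4 sex-linked transcripts tested, 3 were thus higher and 1 lower, with a median log2 fold of 7.19, or 2.56 with those at 0 set to their bound. The part of male cells in the differences above was not tested.

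Sterol and fatty acid synthesis genes were mostly lower in MLL-AF9 Id1-/- cultures. Of 26 tested, 17 were lower and 2 higher, with a median log2 fold of -0.63. Fasn, fatty acid synthase, stood at 198 CPM against 80.7 and 72.8 CPM, a log2 fold of -1.37 (SE 0.10, adjusted p = 3.89e-08). Sqle, squalene epoxidase, stood at 66.6 against 33.0 and 27.8 CPM, and Idi1, which makes isoprenoid units, at 24.7 against 9.46 and 8.33 CPM. Mvk, mevalonate kinase, was one of the higher ones, at 12.3 against 19.1 and 20.4 CPM. With 1 library left out at a time, 13 to 17 were called lower.

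Energy and protein synthesis genes were mostly higher. Of 25 glycolysis and hypoxia genes, 17 were higher and 4 lower, with a median log2 fold of 0.65. Pkm, pyruvate kinase, stood at 1566 CPM against 3416 and 3432 CPM and Tpi1, triose phosphate isomerase, at 357 against 815 and 839 CPM. The glucose transporter Slc2a3 was lower, at 49.7 against 8.85 and 7.85 CPM, a log2 fold of -2.57 (SE 0.14, adjusted p = 1.49e-09). Of 26 nuclear genes of the respiratory chain, 18 were higher and 1 lower, with a median of 0.51. Ndufa2 and Ndufb8, of complex I, stood at 38.9 against 94.1 and 96.2 CPM and at 23 against 57.5 and 67.9 CPM. Of 34 cytosolic ribosomal protein genes, 19 were higher and 2 lower, with a median of 0.34. Rps29 stood at 114 against 367 and 382 CPM. Ribosomal protein genes have many processed copies in the genome, and how reads shared with those copies were counted is not stated, so their values are uncertain.

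Of 13 iron and haem genes, 5 were higher and 2 lower, with a median log2 fold of 0.13. Ftl1, ferritin light chain, stood at 942 CPM against 6517 and 6338 CPM, a log2 fold of 2.77 (SE 0.11, adjusted p = 5.31e-11). Slc40a1, ferroportin, the iron exporter, stood at 53.3 against 194 and 197 CPM, and Slc11a1, the metal transporter of phagosomes, at 324 against 843 and 924 CPM. Tfrc, through which iron is taken up, was one of the lower ones, with the values given above. Ferritin light chain also has near-identical copies, so its level is uncertain in the same way. Of 15 NRF2 antioxidant genes, 8 were higher and 1 lower, with a median of 0.51. Gsr, glutathione reductase, stood at 84.4 against 242 and 249 CPM, and the cystine transporter Slc7a11 was lower, at 57.4 against 23.2 and 23.1 CPM.

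Dividing-cell genes leaned lower in MLL-AF9 knockout cultures. Of 24 mitosis genes, 14 were lower and none higher, with a median log2 fold of -0.50. The count was 7 without MLL-AF9 Id1-/- replicate 2 and 6 with the DESeq2 Wald test. Mki67, the Ki-67 antigen, stood at 126 CPM against 36.8 and 29.7 CPM, a log2 fold of -1.92 (SE 0.14, adjusted p = 3.41e-08), and Cenpe, a centromere motor, at 25.3 against 10.3 and 9.14 CPM. Of 22 S-phase genes, 7 were lower and 2 higher, with a median of -0.27. The lower count was 12 without MLL-AF9 Id1-/- replicate 1, 3 without replicate 2 and 4 with the DESeq2 Wald test. Rrm2, which makes deoxynucleotides, stood at 103 against 49.3 and 36.3 CPM, while Pcna, the replication clamp, was higher, at 274 against 370 and 348 CPM.

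Of 20 CDK inhibitors and p53 targets, 7 were higher and 5 lower, with a median log2 fold of 0.04. Cdkn1c, p57, stood at 9.96 CPM against 91.9 and 95.3 CPM, a log2 fold of 3.23 (SE 0.14, adjusted p = 7.85e-11). Cdkn2c, p18, stood at 13.9 against 109 and 113 CPM, a log2 fold of 3.0 (SE 0.13, adjusted p = 8.5e-11). Bax, which permeates the mitochondrial membrane, stood at 57.2 against 134 and 162 CPM. The lower count was 3 with the DESeq2 Wald test.

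Of 22 immediate early genes, 10 were higher and 4 lower, with a median log2 fold of 0.31. Jund and Fos, subunits of AP-1, stood at 20.7 CPM against 107 and 102 CPM and at 130 against 304 and 288 CPM, while Myc stood at 63.3 against 26.1 and 25.6 CPM. Of 19 ER chaperones and unfolded protein response genes, 12 were higher and 2 lower, with a median of 0.42, and neither lower call held without MLL-AF9 Id1-/- replicate 2. Sdf2l1, a chaperone partner, stood at 39.3 against 81.5 and 79.7 CPM. Of 21 amino acid stress genes, 8 were higher and 3 lower, with a median of 0.15. The DESeq2 Wald test called 4 of them higher, and 6 were called lower with either MLL-AF9 Id1+/+ replicate left out. Ddit4, an inhibitor of mTOR, stood at 18 against 69.2 and 74.8 CPM, and Cebpb, a factor of myeloid and stress responses, at 64.5 against 180 and 173 CPM. Of 12 heat shock genes, 2 were higher and 3 lower, with a median of -0.09, and 1 was called higher with either MLL-AF9 Id1-/- replicate left out. Of 9 long noncoding and host RNAs, 1 was higher and 3 lower, with a median of 0.05, and 1 was lower without MLL-AF9 Id1-/- replicate 2.

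The largest differences outside the lists included genes near 0 in one model. Higher in MLL-AF9, besides the antibody genes and Mycn, were Dsp, desmoplakin, with 1 count in AE9a against 220 and 228, Snrpf, a spliceosome protein, with 2 against 415 and 389, and Gzmd, a granzyme, with 3 against 330 and 360. Cyp2s1, a cytochrome P450, had 2 counts against 213 and 232. Qser1 had 0 counts in AE9a against 364 and 334, at least 114-fold higher with the 0 taken as 3 counts. It is the only gene at 0 in both AE9a libraries with at least 100 counts in all 4 MLL-AF9 libraries. Genes at 0 in all MLL-AF9 libraries are absent from the join, so the reverse could not be searched. The part of the separate tables in Qser1, in Snrpf and in the other genes with 1 to 3 counts in AE9a was not tested. The antisense RNA Gm13012 and the processed pseudogene Gm19810 were also in this group, and their reads cannot be told apart from those of related or overlapping genes.

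Lower in MLL-AF9 were Mcoln3, a lysosomal channel, at 24.9 CPM against 0.203 and 0.215 CPM, Mamdc2, a secreted protein, at 334 against 8.65 and 8.33 CPM, and Slc36a2, an amino acid transporter, at 43.7 against 0.712 and 1.02 CPM. The red cell genes Mfsd2b and Sptb, beta-spectrin, stood at 14.1 against 0.305 and 0.43 CPM and at 34.6 against 1.22 and 0.645 CPM. Both were named for the size of their folds, so they are no separate support for the erythroid list. Serpina3g, a protease inhibitor, stood at 20.7 against 0.61 and 0.484 CPM. The processed pseudogenes Gm6166 and Gm7336, whose reads may belong to their parent genes, stood at 203 against 4.73 and 4.46 CPM and at 111 against 3.10 and 3.06 CPM.

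The difference between the models was next compared between genotypes. In 991 of the 15086 genes (6.57%) the log2 fold of MLL-AF9 over AE9a was more positive in Id1-/- than in Id1+/+, and in 559 (3.71%) it was more negative. This split depends on the scaling: with library totals it was 279 against 863 and with upper quartile scaling 566 against 783. Without MLL-AF9 Id1-/- replicate 2 it was 507 against 366. Of the genes called between models in Id1-/-, 414 of those higher and 605 of those lower were also called in this difference. Each AE9a arm of it is 1 library.

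**Figure D4:**
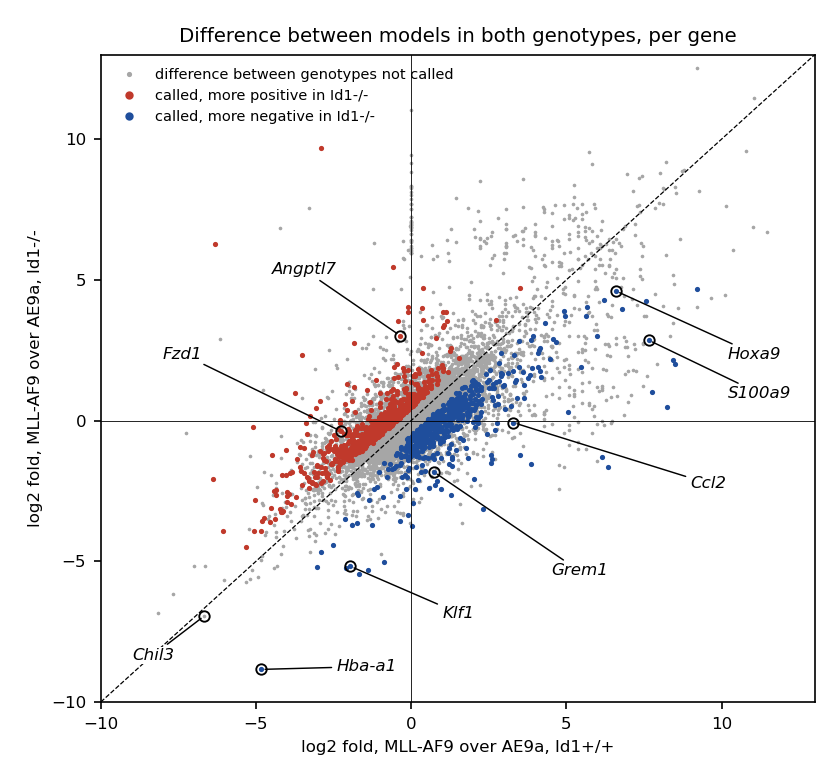
Log2 fold of MLL-AF9 over AE9a for each gene tested in Id1+/+ (x axis) and Id1-/- (y axis), with genes whose difference between genotypes was called in red (more positive in Id1-/-) or blue (more negative). Most points lie along the dashed line of equal folds; Angptl7 lies above it at -0.35 and 3.01, and Ccl2 below it at 3.29 and -0.08.

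The monocyte chemokines Ccl2 and Ccl7 and the antagonist Grem1 were among the genes whose model difference changed with genotype. Ccl2 (chr11:82035571-82037453, plus strand) stood at 68.0 CPM in AE9a Id1-/- against 62.9 and 66.2 CPM in MLL-AF9 Id1-/-, and was not called between models there (adjusted p = 0.611). With Id1 present it stood at 19.2 CPM in AE9a against 199 and 176 CPM, so that its difference of log2 folds was -3.36 (adjusted p = 3.84e-08). Grem1 stood at 37.6 CPM in AE9a Id1+/+ against 60.7 and 63.5 CPM, the reverse of its order in the knockout cultures, a difference of -2.55 (adjusted p = 9.92e-08). The same turn was seen in Ccl7 and Ptgs2, at 23.3 against 95.3 and 69.1 CPM and at 37.2 against 47.3 and 47.4 CPM in Id1+/+. Csf1, lower in MLL-AF9 by 1.20 on the log2 scale in knockout cultures, stood at 246 against 258 and 248 CPM with Id1 present. Cxcl14 and the aspartic protease Ctse were higher in MLL-AF9 in both genotypes and by less in Id1-/-, with differences of -2.28 and -2.64.

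In the other direction, Angptl7 had a difference of log2 folds of 3.36 (adjusted p = 9.92e-08). The long noncoding RNA Gm42047 (chr8:121833247-121841178, plus strand) stood at 15.5 CPM against 37.5 and 38.1 CPM in Id1-/- and at 86.8 against 19.2 and 21.8 CPM in Id1+/+, a difference of 3.37 (adjusted p = 4.53e-08). The transcribed pseudogene Gpr137b-ps, which may share reads with its parent gene, stood at 88.6 against 290 and 318 CPM in Id1-/- and at 406 against 372 and 380 CPM in Id1+/+. The Wnt receptor Fzd1 was lower in MLL-AF9 by 0.38 on the log2 scale in Id1-/-, a call lost with either MLL-AF9 Id1-/- replicate left out, and by 2.27 in Id1+/+. Plpp3, which degrades lysophosphatidic acid, Stac2, an adaptor of calcium channels, and Ero1lb, an oxidase of the endoplasmic reticulum, had differences of 1.67, 1.62 and 1.76. For Id1 the difference was 0.86 (adjusted p = 0.0378), and the call was lost in 7 of the alternative settings, where the adjusted p ran from 0.0548 to 0.209.

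**Figure D5:**
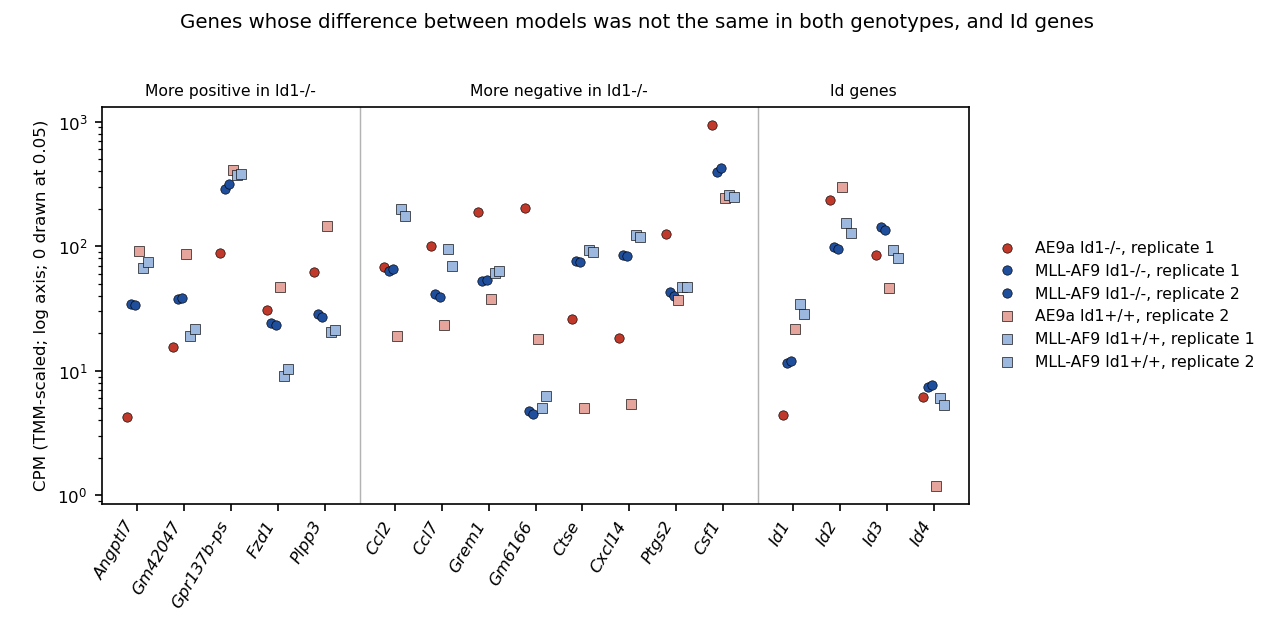
CPM on a log axis in each of the 6 libraries for genes whose model difference was not the same in both genotypes, and for the 4 Id genes. Angptl7 is lowest in AE9a Id1-/- at 4.23 CPM and highest in AE9a Id1+/+ at 91.1 CPM, while Grem1 is highest in AE9a Id1-/- at 187 CPM.

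In some lists a larger share of members was called in this difference than the 6.57% and 3.71% of all genes. Of 22 S-phase genes, 12 had a more negative model difference in Id1-/- and none a more positive one, with a median log2 fold of -0.27 in Id1-/- and 0.39 in Id1+/+. More negative differences were also called in 11 of 28 matrix glycoproteins, 10 of 24 cytokines and chemokines, 8 of 15 myeloid progenitor markers, 7 of 22 mesenchymal markers and 7 of 18 collagen processing enzymes. More positive ones were called in 7 of 27 lysosomal genes, 6 of 19 lipid-associated macrophage genes and 5 of 14 class I genes. Several of these counts depend on the setting. Without MLL-AF9 Id1-/- replicate 2 they were 7 for the S-phase genes, 4 for the collagen processing enzymes, 2 for the lysosomal genes and 3 for the class I genes, and the lysosomal count was 4 without MLL-AF9 Id1+/+ replicate 2. With library totals the lysosomal count was 1 and the class I count 2. The DESeq2 Wald test called 7 S-phase genes and 3 myeloid progenitor markers. Of the 15 Hoxa and Meis1 targets, 6 had a more negative difference and 1 a more positive one. The fold of Hoxa9 was smaller in Id1-/-, at 4.60 against 6.59 in Id1+/+, as was that of Hoxa10, at 2.81 against 4.68. The Hoxa levels of both MLL-AF9 genotypes lay close, at 108 and 124 CPM for Hoxa9 in Id1-/- and 139 and 147 CPM in Id1+/+. The AE9a libraries stood at 4.76 and 1.48 CPM. The erythroid gene Klf1 stood at 14.4 CPM in AE9a Id1-/- and 2.78 CPM in AE9a Id1+/+, with a difference of -3.21.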

How the data were processed

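RNA of cultured mouse bone marrow stromal cells was sequenced in 8 samples of 4 groups (leukaemia model and Id1 genotype). TruSeq RNA libraries were read on a NovaSeq, per the labels' protocols. The mm10 build, DESeq2 1.32.0, featureCounts 2.0.1, HISAT2 2.2.1 and fastp 0.22.0 are listed without role or order, per the submitters' processing notes. The strand setting and annotation release are not given in the sources used here, so reads of a gene and of one antisense to it cannot be told apart. The authors deposited raw counts per gene name, without normalization, in 1 table for each model.

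The AE9a Id1+/+ columns differ by 134 in 17957 of 17958 genes with at least 2 counts, so 1 column was used there as well. The tables use different gene-name releases: 115 MLL-AF9 names have no AE9a row of that name. RefSeq synonyms linked 94 pairs of an AE9a name and an MLL-AF9 name, which were left out. Some MLL-AF9 names, such as H4c12 and Get1, occur in several pairs, so the pairs are not all renamed genes. The 6 usable libraries were fitted together with edgeR 4.0.16 (R 4.3.3): filterByExpr, TMM scaling, 4 groups, quasi-likelihood F tests (two-sided) and Benjamini-Hochberg adjustment over 15086 genes with a threshold of 0.05. The 2-fold rule used log CPM with a prior count of 2. A count of 0 was taken as 3 counts in that library, and ratios with 1 to 3 counts carry 95% exact binomial intervals, which cover counting error only. The fit was also run on simulated counts with the same dispersion in every library and no effect of table or batch. That run could not test the assumption made for the lone AE9a libraries, or the part of the tables. Alternatives were DESeq2 1.42.0, limma 3.58.1 (voom), other scalings and filters, the 3 Id1-/- libraries alone, a replicate block and leaving out each MLL-AF9 library.

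The members and the 55 gene lists were chosen with earlier results of these data known, so no list count is independent support. List members absent from the join or below the filter were not tested. Named genes are Id1, the Id genes, Angptl7, fusion partners and sex-linked transcripts; in each list up to 4 called members past 2-fold with the smallest p and up to 2 against the majority; the 10 largest folds in each direction outside the lists with at least 10 CPM; and the 6 smallest p in each direction of the difference between genotypes. Other genes are marked as chosen after their values were seen. Some genes that the rule names are not reported here. Gene coordinates are those of the mm10 annotation used here.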

Additional observations from a re-analysis of the deposited data

Results flagged for a closer look

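In 68 of the genes named above, the log2 fold of MLL-AF9 over AE9a in Id1-/- cultures minus that in Id1+/+ cultures passed an adjusted p of 0.05 (edgeR quasi-likelihood test of the difference itself), which marks them as differing between the genotypes. Each AE9a arm of this difference is 1 library, and no cause was tested. The call was lost under at least 1 other setting in 24 of the 68. It was lost in 7 settings for Id1, Meis1 and H2-Aa, in 6 for Cxcl12, in 5 for Ifit3, in 4 for Car2 and Notch1 and in 3 for Gpnmb. The other 16, each lost in 1 or 2 settings, were Acta2, Cd83, Cebpb, Cfp, Fos, Igfbp5, Kmt2a, Mrc1, Myb, Prrx2, Rtp4, Slc11a1, Slc2a3, Sparc, Sptb and Vwf.

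Among blood and immune genes the difference was -4.80 for S100a9, -4.00 for Hba-a1, -3.32 for Ngp, -3.21 for Klf1, -3.15 for Mfsd2b, -2.16 for Sptb, -1.47 for Myb, -0.85 for Pf4, -0.74 for Cd83 and -0.49 for Cfp. It was positive for Slc11a1 at 0.59, Gpnmb at 0.56, Cebpb at 0.61, Mrc1 at 0.71, Tfrc at 0.98, Vwf at 1.02, H2-Aa at 1.14, Il1rl1 at 1.27 and Mfge8 at 1.41. Among chemokines and other secreted proteins it was -3.36 for Ccl2, -3.16 for Ccl7, -2.28 for Cxcl14, -1.27 for Ccl6, -1.24 for Csf1, -2.55 for Grem1 and -1.01 for Igfbp5, against 0.63 for Cxcl12 and 3.36 for Angptl7.

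Among homeobox genes and their partners the difference was -2.05 for Hoxa5, -1.99 for Hoxa9, -1.92 for Hoxa7, -1.87 for Hoxa10, -1.59 for Prrx2 and -0.83 for Meis1, against 1.04 for Kmt2a. Of the Id genes, Id4 had -1.94 and Id1 0.86. The interferon-stimulated genes Rtp4 and Ifit3 had -1.63 and -1.62. Among matrix, stromal and contractile genes it was -1.25 for Pdgfra, -1.05 for Pdgfrb, -1.03 for Col3a1, -0.95 for Col4a1, -0.79 for Nid1, -0.70 for Serpinh1, -0.70 for Mmp2, -1.87 for Mmp9, -0.55 for Sparc and -0.54 for Acta2, against 1.13 for Ctsk.

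Among growth, stress and metabolic genes it was -1.42 for Rrm2, -1.27 for Myc, -0.92 for Cdkn2c, -0.82 for Slc2a3 and -0.53 for Fos, against 1.02 for Slc7a11, 1.01 for Igf2r, 0.76 for Notch1 and 1.90 for Fzd1. Others were Ptgs2 at -1.95, Ctse at -2.64 and the pseudogene Gm6166 at -3.78, and on the positive side Stac2 at 1.62, Plpp3 at 1.67, Ero1lb at 1.76, Gpr137b-ps at 1.89, Gm42047 at 3.37 and Car2 at 4.86.

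Signal outside the comparison was present in AE9a rows that have no row of that name in the other table, so that the MLL-AF9 level was not analysed here. The AE9a Id1-/- library held 7304 counts of the monocyte chemokine Ccl8, 6242 of Cpa3, 2264 of Tph1, which makes serotonin, and 1611 of Cma1. Mitochondrial names took 5.461% of its counts.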

How the results depend on the processing

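Every called value of a named gene kept its sign under every setting tried. Some list medians did not. With genes kept only at a mean of at least 5 CPM, the median log2 fold was 0.42 for the 3 dendritic cell markers left. It was 0.59 for the 9 myeloid progenitor and blast markers left and -0.35 for the 6 insulin-like growth factor genes left. In that setting 1 of the muscle, nerve, glia and epithelial markers was left, at 0.11, and 1 sex-linked transcript, at -1.16. Without MLL-AF9 Id1-/- replicate 1 the 1 sex-linked transcript tested stood at -1.03, and the median of the long noncoding and host RNAs was -0.29. The median of the osteoclast markers was 0.21 with the replicate block. Medians near 0 turned as well, to -0.08 for the TGF-beta and BMP genes at 5 CPM and to -0.02 for the CDK inhibitors and p53 targets with library totals. Car2, not called, had a log2 fold of 0.42 with the replicate block, -1.54 without MLL-AF9 Id1-/- replicate 1 and 0.44 without replicate 2, against -0.23. With the DESeq2 Wald test 2507 genes were higher and 1875 lower in MLL-AF9 Id1-/-, with 494 and 281 in the difference between genotypes, and 4372 of the 6675 calls were kept. Library totals gave 279 and 863 in that difference and upper quartile scaling 566 and 783. A 4-fold rule in place of 2-fold kept 372 higher and 196 lower. Leaving out each MLL-AF9 library gave 3112 to 3549 higher and 2325 to 3359 lower, 507 to 1058 and 366 to 703 in the difference between genotypes, and 1184 to 1190 and 943 to 1006 past 2-fold. The AE9a libraries cannot be left out. With the replicate number as a block, 4165 were higher and 3212 lower, and the difference between genotypes held 1156 and 657. The deviations of same-numbered libraries correlated at 0.161 over 10180 genes, so the numbers were not taken as a pairing. With the block the difference called for Meis1 was lost (adjusted p = 0.0587), and differences were called in 16 lysosomal and 10 lipid-associated macrophage genes. Small folds such as those of Rpl6 and Rpl7 lost their calls without an MLL-AF9 Id1-/- replicate. The depth of the lone AE9a library limits genes with few counts there, and its own variation was not measured. No adjusted p was given by DESeq2 for some genes of few counts, and these were left out of its counts.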
